A study of Mus musculus with 22 samples.

Results

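The comparison described here is that of goat farm particulate matter (PM) against no PM in the lungs of mice of the ovalbumin (OVA) arm. Its members are the 11 OVA-arm libraries of the deposited count table, 5 with PM and 6 without, out of 22 libraries in all. The mice were C57BL/6, which the design text calls old wild type; no age in weeks was given. Both groups carry the label of OVA sensitisation and differ in the labelled challenge, 3 µg of PM or no PM. The other 11 libraries are labelled as saline in place of OVA, 5 with PM and 6 without, and are called the saline arm. The protocol text speaks of OVA/Sal and OVA/OVA mice, so the saline arm may hold sensitised mice challenged with saline. The design text gives 5 samples a group. Polyadenylated RNA of right caudal lung lobes was sequenced.

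OVA sensitisation and challenge is a standard mouse model of allergic airway disease, in which type 2 helper cells release interleukins 4, 5 and 13, eosinophils enter the lung and goblet cells make mucus. Dust from livestock farms carries bacterial and fungal products. These are sensed by Toll-like receptors and C-type lectins on macrophages and epithelium, which signal through NF-kB to chemokines that draw neutrophils.

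Depth differed widely between the 11 libraries. Without PM the gene counts summed to 12.8, 22.1, 14.6, 1.84, 7.57 and 23.2 M in replicates 1 to 6, and with PM to 14.3, 10.3, 0.302, 1.13 and 16.5 M in replicates 1, 2, 4, 5 and 6. Thus 3 libraries held fewer than 2 M counts. Levels are given as CPM, the TMM-scaled share of a library's counts. Before TMM scaling, by library total alone, a single count was worth 3.31 CPM in PM replicate 4, 0.886 in PM replicate 5 and 0.543 in no-PM replicate 4. The 10 most abundant genes took 12.4% to 13.8% of the counts with PM and 7.58% to 12.5% without. Lung markers were present in all 11 libraries, with surfactant protein C (Sftpc) at 16779 to 28633 CPM without PM and 28065 to 41246 CPM with PM. Hba-a1, Hbb-bs and Ccl21a were listed at 0 in all 11.

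Library 4 of the no-PM group stood with the PM libraries. Its log2 CPM profile correlated at 0.972 with the PM group and at 0.954 with the rest of its own group, over 12429 genes. PM replicates 2 and 6 also correlated slightly more with the opposite group (0.972 and 0.972) than with their own (0.968 and 0.967), a gap smaller than that of no-PM replicate 4. Replicate 4 with PM, the shallowest library, correlated at 0.889 with its own group and at 0.876 with the other. The PM libraries also carry description codes from a different number range than the no-PM libraries, and any difference in preparation or sequencing run cannot be told apart from PM. No label states separate animals for the libraries, and the p-values reflect variation among the samples as labelled, part of which can be technical.

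The libraries also differed in how their levels ran with transcript length and base composition. Each gene's log2 CPM was taken relative to its mean over the 11 libraries, so differences between slopes carry meaning but their signs do not. In the 5 PM libraries this relative level moved by -0.09 ± 0.04 (mean ± SD) for each doubling of transcript length. In the 6 no-PM libraries it moved by 0.07 ± 0.10 (exact two-sided permutation test between the groups, p = 0.0130, adjusted over 2 trends 0.0216). The slope on GC content was -0.10 ± 0.11 per 10 percentage points with PM and 0.09 ± 0.10 without (same exact test, p = 0.0216, adjusted 0.0216). On GC content PM replicate 5 stood on the side of the no-PM mean, at 0.07. No-PM replicate 4 had slopes of -0.10 on length and -0.09 on GC content, both on the side of the PM means. Its label was kept throughout, and whether that label is right was not tested; if it is wrong, the no-PM ranges given below include a PM library. The median transcript was 1757 nt among genes higher with PM, 4549 nt among genes lower and 3253 nt among genes not called. List counts are therefore given below also with an offset that removes each library's trend on length and GC content. The part of these trends in the gene results beyond that offset was not tested.

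**Figure D1:**
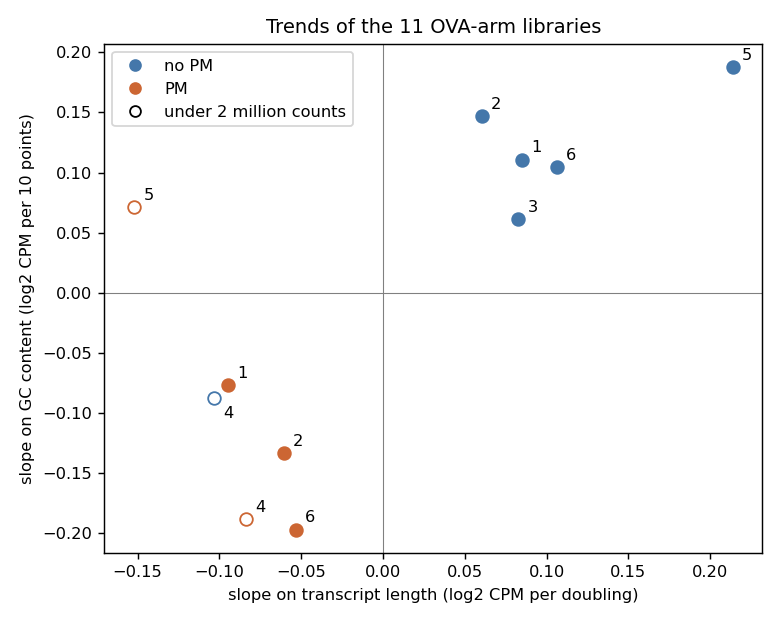
Slope of log2 CPM, relative to each gene's mean over the 11 OVA-arm libraries, on GC content (per 10 percentage points) against slope on transcript length (per doubling). Libraries are numbered by replicate, and open symbols are libraries under 2 M counts. The 5 PM libraries and no-PM replicate 4 have length slopes below 0, and the other no-PM libraries above 0. The GC slope of PM replicate 5 is above 0, unlike those of the other PM libraries.

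With PM, 1339 of 14657 tested genes (9.14%) passed an adjusted p of 0.05 in edgeR's quasi-likelihood test, of which 332 were higher (2.27%) and 1007 lower (6.87%). A change of more than 1 on the log2 scale was seen in 24 higher and 122 lower genes. The PM and no-PM libraries did not overlap in CPM for 510 tested genes (3.48%), 159 higher (1.08%) and 351 lower (2.39%). Heart and smooth muscle genes, collagens, endothelial genes and interferon-stimulated genes were among the genes that fell, and alveolar macrophage and C-type lectin genes among those that rose. The offset left 319 of 14573 genes (2.19%), 70 higher (0.480%) and 249 lower (1.71%), and 264 of these were among the 1339. Without the 3 libraries under 2 M counts 3472 of 14903 genes passed (23.3%), with 1497 up (10.04%) and 1975 down (13.3%), and they included 1331 of the 1339. With the offset and without those libraries 1462 of 14812 were called (9.87%), 573 higher (3.87%) and 889 lower (6.00%).

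The number of calls rested on single libraries. Without PM replicate 1 or PM replicate 6 no gene was called. The smallest adjusted p was then 0.0554 and 0.0558, 3207 and 3566 genes had an unadjusted p under 0.05, and DESeq2 called 655 and 832. All 1339 genes kept their direction in each case, 1337 and 1339 of them with an unadjusted p under 0.05. Each list count and gene call of the OVA-arm fit given below is lost in edgeR without either of these libraries. Without PM replicate 2 the count was 413. Without no-PM replicate 1, 3, 5 or 6 it was 569, 520, 605 and 694. Without no-PM replicate 4 it rose to 3396 of 14672 genes, with 1376 higher (9.38%) and 13.8% lower. All 1339 genes were among the 3396.

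**Figure D2:**
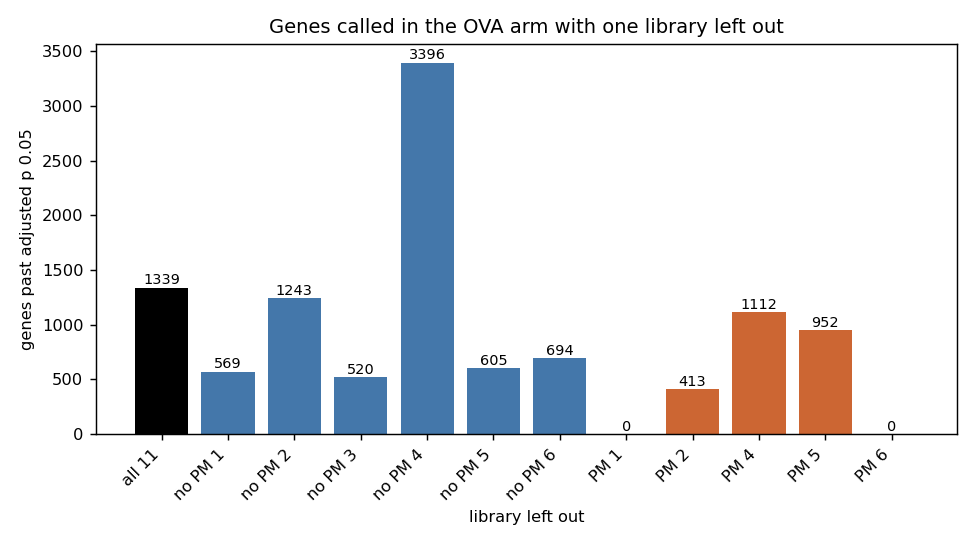
Number of genes past an adjusted p of 0.05 (edgeR) in the OVA arm with all 11 libraries and with each library left out in turn; bars start at 0. The count was 1339 with all libraries, 0 without PM replicate 1 or 6, and 3396 without no-PM replicate 4.

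Genes of the extracellular matrix fell with PM. Of 19 collagen and elastic fibre genes tested, 14 were lower (6.87% over all genes) and 0 higher. The median log2 fold change was -0.95, beside a median of -0.00 over all genes tested. Col4a1, a chain of basement membrane collagen, stood at 205, 360 and 612 CPM (lowest, median and highest library) without PM. With PM it was 188, 165, 192, 201 and 178 CPM in replicates 1, 2, 4, 5 and 6. The groups did not overlap, and the lowest no-PM library, replicate 4, lay next to the PM libraries. The log2 fold change was -1.08 ± 0.21 (SE, adjusted p = 0.0155). Col6a2, a chain of the beaded-filament collagen VI, was 125, 225 and 355 CPM without PM and 117, 101, 69.5, 110 and 103 CPM with PM. All PM libraries lay below all no-PM libraries (log2 fold change -1.16 ± 0.23, adjusted p = 0.0155). Loxl1, which cross-links elastin, fell by 1.03, and Ltbp4, which organises elastic fibres and binds latent TGF-beta, by 1.47. Col1a1, a chain of fibrillar collagen I, fell by 1.64. With the offset 6 of the 19 were lower (1.71% over all genes, median -0.64), and without the libraries under 2 M counts 16 (13.3% over all genes). Of 16 fibroblast and pericyte genes 2 were lower (6.87% over all genes), Npnt (nephronectin, -0.64 ± 0.16) and Pdgfrb (the pericyte PDGF receptor, -0.99 ± 0.26). Without the shallow libraries 9 were lower (13.3% over all genes). With the offset 0 of these 16 were called. In bulk tissue, fewer cells of a type and less RNA per cell cannot be told apart.

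Endothelial genes fell as well, 11 of 19 tested (6.87% over all genes) with 0 higher and a median of -0.50. Vwf, which encodes the clotting factor carrier von Willebrand factor, was 118, 183 and 287 CPM (lowest, median, highest) without PM and 93.4, 102, 59.6, 88.1 and 112 CPM with PM. These groups did not overlap (log2 fold change -1.001 ± 0.197, adjusted p = 0.0155). Cdh5, the cadherin of endothelial junctions, was 205, 378 and 578 CPM without PM and 182, 211, 242, 187 and 207 CPM with PM. Here no-PM replicate 4 lay inside the PM range and the other no-PM libraries above it (-0.94 ± 0.19, adjusted p = 0.0170). The VEGF receptor Kdr fell by 0.85, Tie1 by 0.83 and the TGF-beta co-receptor Eng by 1.12. Npr1, the receptor of atrial natriuretic peptide, was among the 6 called lower genes with the smallest p. It was 92.4, 125 and 138 CPM without PM and 72.1, 73.2, 62.9, 72.6 and 73.4 CPM with PM, with no overlap (-0.75 ± 0.10, adjusted p = 0.0135). With the offset 5 of the 19 endothelial genes were lower (1.71% over all genes), and Npr1 stayed below the threshold (adjusted p = 0.0286).

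Smooth muscle genes were lower in 6 of 12 (6.87% over all genes), with 0 higher and a median of -0.86. Smtn (smoothelin, a marker of contractile smooth muscle) was 18.8, 33.2 and 62.8 CPM without PM and 17.3, 17.4, 9.93, 10.6 and 13.9 CPM with PM. The groups did not overlap, though the value of PM replicate 4 rests on 3 counts (-1.30 ± 0.24, adjusted p = 0.0153). Des (desmin) fell by 1.02 and Myh11, the smooth muscle myosin heavy chain, by 1.20. With the offset 3 of the 12 were lower (1.71% over all genes).

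Cardiac and striated muscle genes made up the 12 largest falls among called genes averaging 1 CPM or more. Of the 14 heart muscle genes tested 9 were lower (6.87% over all genes), with a median of -1.62. A lung lobe carries cardiac muscle in the walls of the pulmonary veins in mice, and a dissected lobe can carry heart tissue. Myh6, the cardiac myosin heavy chain, was 10.8, 43.3 and 107 CPM without PM and 12.1, 22.6, 13.2, 26.1 and 18.9 CPM with PM. All PM libraries lay inside the no-PM range, because no-PM replicate 4 was the lowest of all 11 (-1.48 ± 0.38, adjusted p = 0.0294). The atrial peptide gene Nppa fell by 2.81, and the log2 fold changes were -2.37 for the giant sarcomere gene Ttn and -2.13 for sarcolipin (Sln), which regulates the calcium pump. Summed over the list the level was 223 to 576 CPM in the no-PM libraries apart from replicate 4, and 52.5 CPM in no-PM replicate 4. With PM it was 64.8 to 208 CPM with a median of 96.9 CPM, and the highest was PM replicate 4. In PM replicate 4 these genes rest on few counts, and 4 of the 14 had none. With the offset 4 of the 14 were lower (1.71% over all genes), and without the shallow libraries 13 (13.3% over all genes). Without no-PM replicate 4 all 14 were lower (13.8% over all genes). The part of carried-over muscle in these values was not tested.

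**Figure D3:**
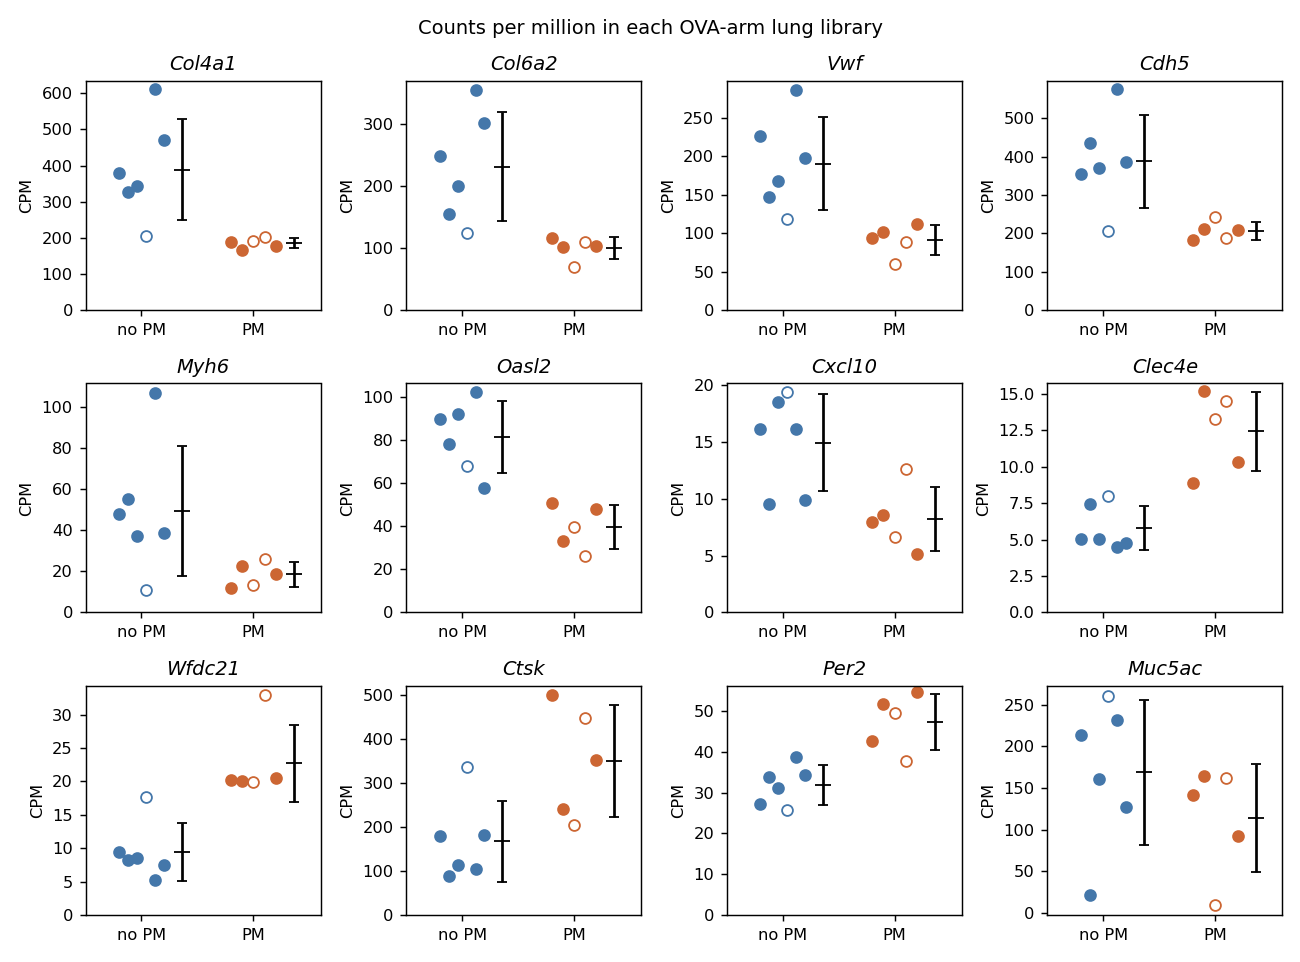
CPM of 12 genes in each OVA-arm library; open circles are libraries under 2 M counts, and the bar is the mean with its SD (6 no-PM and 5 PM libraries), each panel on its own linear axis from 0. Col4a1, Col6a2, Vwf, Oasl2, Clec4e and Wfdc21 do not overlap between the groups. Muc5ac spans 21 to 260 CPM without PM and 9.93 to 165 CPM with PM, where the lowest value rests on 3 counts.

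Of 30 interferon-stimulated genes tested, 8 were lower with PM (6.87% over all genes) and 0 higher, 1 had a log2 fold change above 0, and the median was -0.42. Interferons switch on antiviral genes, many of which carry an interferon-stimulated response element in their promoters. Oasl2, an oligoadenylate synthetase-like antiviral protein, was 57.8, 83.9 and 102 CPM without PM and 50.6, 33.1, 39.7, 26.1 and 48.0 CPM with PM. The groups did not overlap (log2 fold change -0.98 ± 0.17, adjusted p = 0.0146). Cxcl10, a chemokine that draws activated T cells, was 9.51, 16.1 and 19.4 CPM without PM and 7.97, 8.60, 6.62, 12.6 and 5.14 CPM with PM. Here PM replicate 5 lay inside the no-PM range, and the value of PM replicate 4 rests on 2 counts (-0.93 ± 0.25, adjusted p = 0.0331). Other called members were Oas3 (-1.31), Oas2 (-0.73), Irf7, the factor that amplifies interferon output (-0.81), the ubiquitin-like Isg15 (-0.76) and Stat2, a transcription factor of the interferon response (-0.40). With the offset 7 of the 30 were lower (1.71% over all genes) and the median was -0.58. The numbers lower were 11 without the shallow libraries (13.3% over all genes) and 16 without no-PM replicate 4 (13.8% over all genes). In the saline arm the median of the list was 0.12, with 4 higher (4.55% over all genes) and 0 lower (8.49%). A test of the difference between the arms, described below, passed for only 1 of the 30, Rsad2.

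The promoters of 3 of the 8 called genes are shown, chosen because they hold the letters searched for. Each is 300 bases, from 250 before to 50 after the gene start, from RefSeq (GRCm38.p6), read 5′ to 3′ along the gene. Capitals mark the letters GAAANNGAAA on either strand (TTTCNNTTTC on the other), a core of the interferon-stimulated response element. Isg15 lies at chr4:156200769-156201068 on the minus strand, Cxcl10 at chr5:92348840-92349139 on the minus strand and Stat2 at chr10:128270248-128270547 on the plus strand.
Isg15: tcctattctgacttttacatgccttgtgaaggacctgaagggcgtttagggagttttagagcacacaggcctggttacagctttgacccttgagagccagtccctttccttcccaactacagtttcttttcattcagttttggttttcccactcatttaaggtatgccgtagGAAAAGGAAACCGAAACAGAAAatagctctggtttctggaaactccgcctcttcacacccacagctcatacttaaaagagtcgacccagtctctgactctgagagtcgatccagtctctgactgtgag
Cxcl10: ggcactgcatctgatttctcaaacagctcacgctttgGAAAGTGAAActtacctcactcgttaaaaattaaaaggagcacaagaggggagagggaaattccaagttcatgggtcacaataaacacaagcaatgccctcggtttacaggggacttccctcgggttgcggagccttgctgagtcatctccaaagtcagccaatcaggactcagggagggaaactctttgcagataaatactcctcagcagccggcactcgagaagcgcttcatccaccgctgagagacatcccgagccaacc
Stat2: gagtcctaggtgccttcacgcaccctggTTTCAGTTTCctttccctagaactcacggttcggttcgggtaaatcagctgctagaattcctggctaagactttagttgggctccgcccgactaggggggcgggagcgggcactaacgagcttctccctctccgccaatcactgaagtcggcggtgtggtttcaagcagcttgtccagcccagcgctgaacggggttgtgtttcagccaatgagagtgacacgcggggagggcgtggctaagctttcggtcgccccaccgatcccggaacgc
In Isg15 the letters occur 3 times, with overlap. Of the 6 called genes with a promoter in the table, 4 held the letters (the 3 shown and Oas3) and Irf7 and Oasl2 did not, and of all 22 listed interferon-stimulated genes with a promoter, 15 did. Among all promoter windows 3.44% held them, and among tested genes with a window 3.86%. The match is a description of these windows, and the letters were held by genes of the list whether or not they were called.

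Of 15 alveolar macrophage genes tested, 3 were higher (2.27% over all genes) and 0 lower, 14 had log2 fold changes above 0 and the median was 0.69. Krt79, which marks these cells in mice, was 33.5, 43.5 and 91.9 CPM without PM and 86.8, 86.5, 82.7, 82.3 and 105 CPM with PM. No-PM replicate 4 lay among the PM libraries and the other 5 below them (0.93 ± 0.19, adjusted p = 0.0167). Ctsk, the protease cathepsin K, was 88.6, 146 and 336 CPM without PM and 499, 241, 205, 447 and 352 CPM with PM (1.11 ± 0.31, adjusted p = 0.0390). Its highest no-PM library was again replicate 4, and PM replicates 2 and 4 lay inside the no-PM range. The third called gene was Pparg, the transcription factor alveolar macrophages need to mature (0.76 ± 0.23). Summed over the list no-PM replicate 4 stood at 22530 CPM, the other no-PM libraries at 1790 to 9283 CPM and the PM libraries at 3908 to 26123 CPM. The PM median was 18076 CPM, and the lowest PM library was replicate 4. With the offset 1 of the 15 was higher (0.480% over all genes). The number was 11 without the shallow libraries (10.04% over all genes) and 10 without no-PM replicate 4 (9.38% over all genes). Other genes of myeloid cells among the largest rises were Trem2, a lipid receptor (1.10 ± 0.31), Clec4a2 (1.21 ± 0.34) and Ear2, an eosinophil-associated ribonuclease (1.34 ± 0.38).

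Among genes that sense microbial products 4 of 24 were higher (2.27% over all genes) and 2 lower (6.87% over all genes). The number lower was thus near the share over all genes. Clec4e, which encodes Mincle, a C-type lectin that recognises fungal and mycobacterial glycolipids, was 4.46, 5.04 and 7.99 CPM without PM and 8.86, 15.2, 13.2, 14.5 and 10.3 CPM with PM. The groups did not overlap, and the value of PM replicate 4 rests on 4 counts (1.07 ± 0.20, adjusted p = 0.0153, and 0.0358 with the offset). Its partner Clec4d rose by 0.91, Ly96, the co-receptor of TLR4, by 0.65 and the RNA sensor Tlr7 by 0.59, while the DNA sensor Tlr9 fell by 0.73 and Nod1 by 0.35. Tlr4 and Tlr2 did not pass the test, at 0.23 ± 0.16 and 0.22 ± 0.19, nor did Cd14 at 0.51 ± 0.17. When no-PM replicate 4 was left out, Tlr2 (0.42 ± 0.11, adjusted p = 0.0141) and Cd14 (0.58 ± 0.16, adjusted p = 0.0190) passed in edgeR. Tlr4 did not (0.32 ± 0.14, adjusted p = 0.109). With the offset 1 of the 24 was higher (0.480% over all genes) and 0 lower (1.71% over all genes). Without the shallow libraries 12 were higher (10.04% over all genes) and 2 lower (13.3% over all genes). Among 17 acute phase and airway defence genes 3 were higher (2.27% over all genes): Wfdc21, Orm1 (1.04 ± 0.27) and the lysozyme Lyz2 (0.69 ± 0.20). With the offset 1 was higher (0.480% over all genes), and without the shallow libraries 4 (10.04% over all genes). Wfdc21, a secreted protein of the whey acidic protein family, was 5.20, 8.43 and 17.7 CPM without PM and 20.3, 20.05, 19.9, 32.9 and 20.5 CPM with PM, with no overlap (1.35 ± 0.21, adjusted p = 0.0135).

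Of 18 neutrophil chemoattractant and NF-kB cytokine genes tested 1 was higher (2.27% over all genes), Cxcl3, a ligand of the neutrophil receptor CXCR2. It was 5.83, 9.19 and 12.6 CPM without PM and 17.3, 10.6, 13.2, 14.5 and 15.4 CPM with PM (0.76 ± 0.19, adjusted p = 0.0295). PM replicate 2 lay inside the no-PM range, and the value of PM replicate 4 rests on 4 counts. Il1b stood at 0.56 ± 0.21, Cxcl2 at 0.53 ± 0.32, Tnf at -0.30 ± 0.24 and Cxcl5 at -0.80 ± 0.48, none past the threshold. When no-PM replicate 4 was left out, Il1b passed in edgeR (0.75 ± 0.13, adjusted p = 0.00171), and Cxcl2, Tnf and Cxcl5 did not. With the offset 0 of the 18 were called. Without the shallow libraries 3 were higher (10.04% over all genes) and 0 lower (13.3% over all genes).

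Among the genes by which allergic airway disease is usually read, counts of calls stand beside 9.14% called over all genes. Among 17 type 2 cytokine and alarmin genes 1 was higher and 2 lower, and with the offset 0 and 1 (2.19% called over all genes). Il4 was 0.718, 1.02 and 1.28 CPM without PM and 3.13, 1.56, 0, 3.87 and 1.43 CPM with PM, so that 4 PM libraries lay above all others and replicate 4, with no count, below them (1.09 ± 0.32, adjusted p = 0.0440, and 0.448 with the offset). The interleukin 4 receptor chain Il4ra fell by 0.47 (SE 0.10) and Gata3, the transcription factor of type 2 helper cells, by 0.61 (SE 0.15). Il5 (0.27 ± 0.50), Il33 (0.33 ± 0.15), Tslp (0.32 ± 0.25) and Ccl11 (0.28 ± 0.32) did not pass. Of 15 mucous cell genes 0 were called with or without the offset. The gel-forming mucin Muc5ac was 21.04, 187 and 260 CPM without PM and 141, 165, 9.93, 162 and 92.4 CPM with PM, and the ranges overlapped widely (-0.42 ± 0.47, adjusted p = 0.595). The lowest Muc5ac value, in PM replicate 4, rests on 3 counts. Summed over the mucous list this library was also the lowest with PM, at 658 CPM beside a PM median of 7845 CPM. The lowest no-PM sum was 975 CPM beside a median of 5986 CPM, and the lowest no-PM Muc5ac value was that of replicate 2. Each group thus held a library with low mucous genes, and the reason was not tested. Muc5b stood at -0.31 ± 0.25 and Clca1 at 0.15 ± 0.56. Of 9 eosinophil genes 1 was higher, Ear2, and 0 with the offset, and the granule protein genes Prg2 (1.13 ± 0.55) and Epx (1.07 ± 0.69) did not pass. Without the shallow libraries 3 of the 9 were higher (10.04% over all genes).

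The inducible nitric oxide synthase Nos2 was 5.71, 7.56 and 12.1 CPM without PM and 4.32, 3.42, 3.31, 5.81 and 2.79 CPM with PM. It was lower with PM (-1.23 ± 0.23, adjusted p = 0.0155), and PM replicate 5 lay inside the no-PM range. The lowest no-PM library was replicate 4, and the value of PM replicate 4 rests on 1 count. Arg1, a marker of alternatively activated macrophages, stood at 1.22 ± 0.44 and did not pass (adjusted p = 0.0876). It passed in edgeR when no-PM replicate 4 was left out (1.34 ± 0.44, adjusted p = 0.0406).

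All 36 cytosolic ribosomal protein genes tested had log2 fold changes above 0, with a median of 0.45, and 4 passed the test, beside 2.27% of all genes called higher. Rps16 was 151, 275 and 342 CPM without PM and 450, 326, 529, 743 and 318 CPM with PM (0.83 ± 0.22, adjusted p = 0.0344), and PM replicates 2 and 6 lay inside the no-PM range. All 34 respiratory chain genes were also above 0, with a median of 0.46, and 5 passed. Ndufa6, a subunit of complex I, was 81.8, 108 and 154 CPM without PM and 166, 139, 172, 222 and 159 CPM with PM (0.63 ± 0.15, adjusted p = 0.0225), with PM replicate 2 inside the no-PM range. With the offset the medians were 0.19 and 0.08, and 0 and 1 genes passed, beside 0.480% of all genes called higher. The numbers that passed were 23 and 27 without the shallow libraries (10.04% over all genes), and 32 and 28 without no-PM replicate 4 (9.38% over all genes).

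Of 20 antioxidant genes regulated by Nrf2, 4 were higher (2.27% over all genes) and 1 lower (6.87% over all genes). Gsta4, Gpx2, Prdx1 and Sod1 rose by 0.47 to 0.63. With the offset 0 of the list were higher (0.480% over all genes) and 1 lower (1.71% over all genes). Sod3, the extracellular superoxide dismutase, was 104, 235 and 331 CPM without PM and 99.3, 115, 119, 121 and 100 CPM with PM. The PM libraries lay around the level of no-PM replicate 4, the lowest without PM, and 3 of them fell inside the no-PM range (-1.12 ± 0.21, adjusted p = 0.0155, and 0.0338 with the offset). Among 18 clock genes 2 were higher (2.27% over all genes), Per2 among them, and 1 lower (6.87% over all genes), Nr1d1. With the offset 2 were higher (0.480% over all genes) and 0 lower. Per2, a repressor arm component of the clock, was 25.7, 32.5 and 38.9 CPM without PM and 42.7, 51.7, 49.6, 37.8 and 54.7 CPM with PM. PM replicate 5 lay inside the no-PM range (0.57 ± 0.12, adjusted p = 0.0172). With the offset Per2 stood at 0.88 (adjusted p = 0.00581). The hour at which lungs were taken was not given in the sources used here.

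Club cell genes were higher in 2 of 14 (2.27% over all genes), Cldn10 (0.48 ± 0.11) and Cbr2 (0.60 ± 0.17). Ciliated cell genes were higher in 3 of 16 (2.27% over all genes), Dynlrb2, Ccdc39 and Tekt1. Scgb1a1, the club cell secretory protein, stood at 0.59 ± 0.24 and did not pass. With the offset 0 of these were called.

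**Figure D4:**
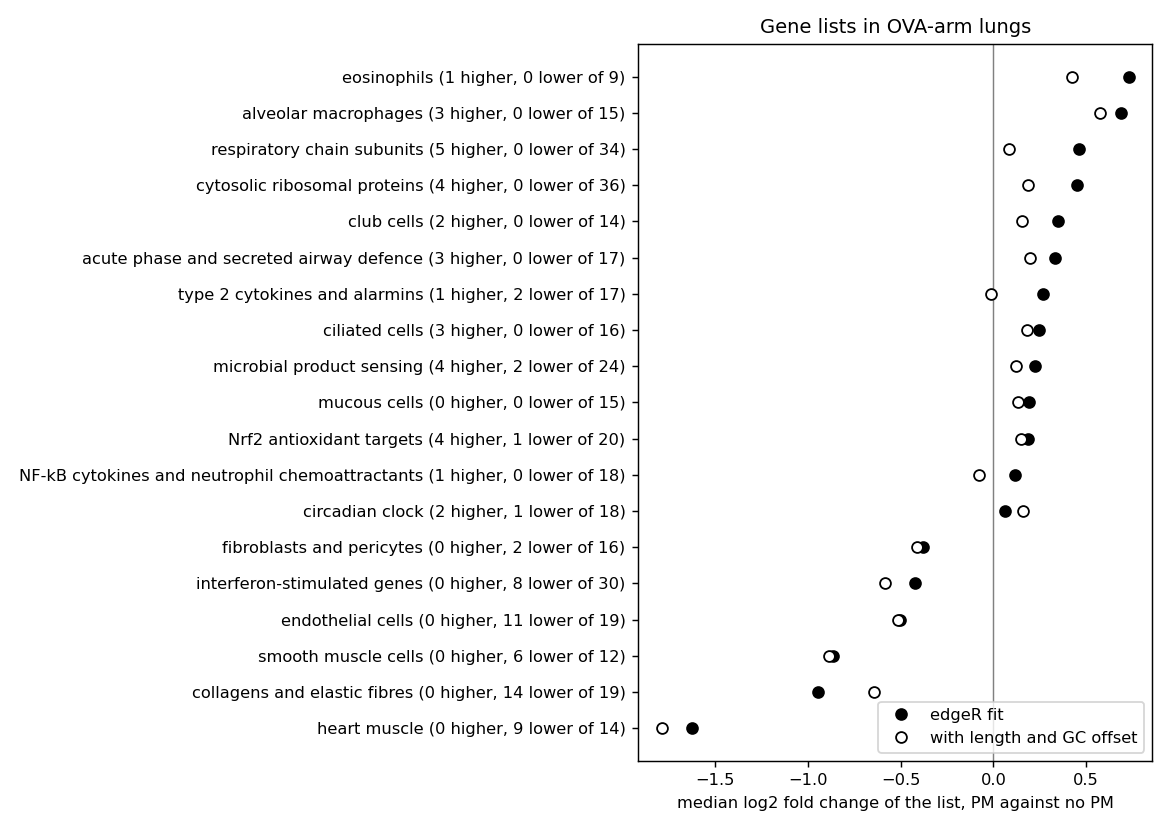
Median log2 fold change (PM against no PM) of 19 gene lists in the OVA arm, from the edgeR fit (filled) and with the length and GC offset (open); counts of called genes of those tested stand beside each name. Heart muscle, collagens, smooth muscle, endothelial and interferon-stimulated genes lie below 0 with and without the offset, and the ribosomal and respiratory chain medians move from 0.45 and 0.46 to 0.19 and 0.08.

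The effect of PM in the OVA arm was then set against that in the saline arm, in a fit of all 22 libraries. The difference itself passed for 14 of 14942 genes (0.0937%), all with a lower PM effect in the OVA arm. None had a higher effect (211 at an unadjusted p under 0.05, smallest adjusted p 0.332; DESeq2 called 0 higher and 24 lower). Of the 14, 5 belong to the list of NF-kB cytokines and neutrophil chemoattractants and 4 to that of acute phase and airway defence genes. Cxcl3 rose from 0.609 ± 0.261 CPM (SD, n = 6) to 17.5 ± 6.18 CPM (n = 5) in the saline arm. In the OVA arm it was 9.03 ± 2.55 CPM without PM and 14.4 ± 2.56 CPM with PM, and the difference was -3.94 ± 0.38 (SE, adjusted p = 3.26e-06). Saa3, an acute phase serum amyloid, went from 7.94 ± 2.71 to 340 ± 180 CPM in the saline arm. In the OVA arm it was 158 ± 85.8 and 199 ± 108 CPM (difference -5.10 ± 0.58, adjusted p = 2.60e-05). Irg1 (also named Acod1, the enzyme that makes itaconate) went from 0.199 ± 0.140 to 5.31 ± 1.88 CPM in the saline arm and was 2.78 ± 0.55 and 4.66 ± 3.68 CPM in the OVA arm. Its fitted OVA-arm log2 fold change was -0.08 although its mean CPM was higher with PM, so its direction in the OVA arm is not given. For these 3 genes the mean without PM was higher in the OVA arm than in the saline arm, a difference that was not tested. Rsad2, an antiviral interferon-stimulated gene, rose in the saline arm by 0.91 and fell in the OVA arm by 0.83 in this fit (difference -1.73 ± 0.30, adjusted p = 0.0140). The count of 14 was 8 or 9 without saline-arm no-PM replicate 1, 5 or 6, saline-arm PM replicate 1 or 5, or OVA-arm PM replicate 6, and 27 without OVA-arm no-PM replicate 2.

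**Figure D5:**
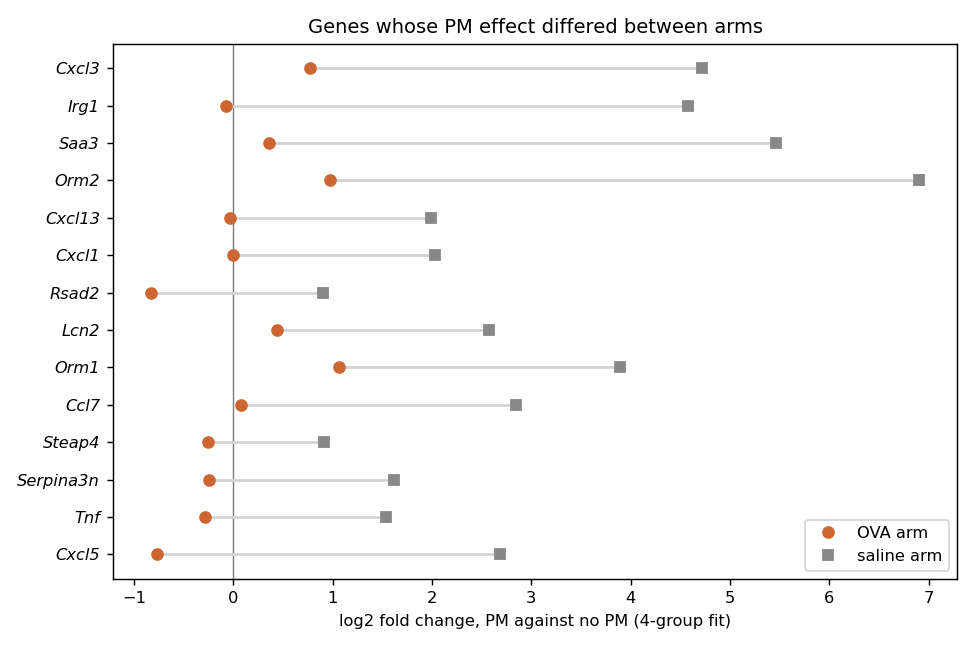
Log2 fold change of PM against no PM in the saline arm (squares) and the OVA arm (circles) for the 14 genes whose PM effect differed between the arms, from the fit of 4 groups. Saa3 stood at 5.46 in the saline arm and 0.36 in the OVA arm.

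In the saline arm 1948 of 14942 genes passed (13.0%), 680 higher (4.55%) and 1268 lower (8.49%). Of the 1339 genes called in the OVA arm 757 (56.5%) were called in the same direction in the saline arm, 91 higher and 666 lower, and 0 in the opposite direction; these are 39.2% of the 1933 saline-arm calls tested in both. The arms share no libraries, but their PM libraries share the other range of description codes. The saline-arm count itself was 376 and 403 without its no-PM replicates 5 and 6, 1230 and 3337 without its no-PM replicates 2 and 3, and 914, 585, 1107 and 965 without its PM replicates 1, 2, 3 and 5.

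In the authors' deposited table for this comparison, 2075 genes had an adjusted p under 0.05, 768 higher and 1307 lower. Of the present calls 1296 had a value in the authors' deposited table, and 1243 were under 0.05 there with the same sign.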

How the data were processed

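Lung RNA of 22 libraries in 4 groups was sequenced for 75 cycles from single ends, from 400 ng of RNA with a stranded polyadenylated-RNA kit and 24 libraries pooled per run, per the labels' protocols. Reads were converted with bcl2fastq and mm10 was the build, per the submitters' processing notes; the aligner, the counter and its strand setting are not given in the sources used here. As gene-level input, the authors deposited raw read counts per gene, the basis of every test here. Per the file headers, another deposited table holds the authors' log2 fold changes and their adjusted p-values; it served for the overlap of calls alone. Of 24421 gene rows, 16 with names turned into dates were left out (0.152% to 0.173% of the counts of an OVA-arm library), and 24405 were used. Of these names 24004 matched GENCODE M21 (GRCm38), which gave the length and GC content of the longest transcript.

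The 11 OVA-arm libraries were fitted alone, and the difference between the arms and the saline-arm effect came from a fit of all 22. Low genes were removed with filterByExpr (10 counts, 15 in total), libraries were scaled by TMM, and edgeR's quasi-likelihood F test was run, with Benjamini-Hochberg adjustment at 0.05. The standard error of a log2 fold change was derived from its F statistic, as its size over the root of F. CPM values are counts scaled to a common library size after TMM. Trend slopes were fitted to log2 CPM minus each gene's mean over the 11 libraries. Their group means were compared by an exact permutation test over samples (462 assignments). The offset was a natural spline with 4 degrees of freedom each for length and GC content per library, fitted on genes averaging 10 CPM or more. The members and the gene lists were chosen with earlier results of these data known. Named genes were the 12 largest changes and the 6 smallest p each way (mean of at least 1 CPM), the members of each described list with the smallest p and up to 3 more called, the 6 largest differences between the arms, and 24 genes fixed by name; other genes named were chosen after their values were seen. Some genes that met this rule are not reported here. The alternatives were DESeq2, DESeq2 size factors, library totals, 2 other filters, robust edgeR, limma voom with quality weights, the offset, the libraries under 2 M counts left out, a replicate block, all 4 groups in one fit, a threshold of 0.1, and each library left out. No replicates were near copies (chi-square per degree of freedom 2.81 to 84.9 in the OVA arm). The procedure was run on simulated counts with planted changes, drawn around a mean profile shared by the libraries. No simulated library was made unlike the rest of its group, so the simulation cannot speak to the dependence on single libraries. Counting intervals were not used, since comparisons rest on replicates. The tools were edgeR 4.0.16, DESeq2 1.42.0 and limma 3.58.1 under R 4.3.3; figures were drawn with matplotlib 3.10.9 in Python 3.11.15.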

Additional observations from a re-analysis of the deposited data

Results flagged for a closer look

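Dixon's test at 95%, which flags about 1 group in 20 by chance, set single libraries apart for 4 of the genes shown by library. In PM replicate 4, Npr1 was low at 62.9 CPM. In no-PM replicate 4, Wfdc21 (17.7 CPM), Krt79 (91.9 CPM) and Ctsk (336 CPM) were high against the rest of the group. Wfdc21 was high in PM replicate 5 at 32.9 CPM and Krt79 in PM replicate 6 at 105 CPM. The 2 replicates numbered 4 and PM replicate 5 are the libraries under 2 M counts.

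The effect of PM differed between the arms for 14 genes, by the test of the difference in the 4-group edgeR fit. On the log2 scale, OVA arm minus saline arm, the difference was -3.94 for Cxcl3, -4.66 for Irg1, -5.10 for Saa3 and -5.93 for Orm2. It was -2.03 for Cxcl13, -2.03 for Cxcl1, -1.73 for Rsad2, -2.14 for Lcn2 and -2.83 for Orm1. It was -2.77 for Ccl7, -1.17 for Steap4, -1.86 for Serpina3n, -1.82 for Tnf and -3.45 for Cxcl5.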

How the results depend on the processing

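The count of genes called in the OVA arm (1339, with 332 higher and 1007 lower) depended on the setting. It was 2053 (184 higher, 1869 lower) with library totals, 4347 (1926 and 2421) with voom and quality weights, 3472 (1497 and 1975) without the libraries under 2 M counts, 319 (70 and 249) with the length and GC offset, and 2725 (944 and 1781) at a threshold of 0.1. The higher count was 559 with DESeq2, 575 with all 4 groups in one fit, and 573 with the offset and without the libraries under 2 M counts. Leaving out one library gave 0 to 3396 called and 0 to 1376 higher. Chosen after seeing the data, DESeq2 called 655 (172 and 483) without PM replicate 1 and 832 (530 lower) without PM replicate 6, and the offset without no-PM replicate 4 gave 568 higher.

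The correlations of same-numbered libraries' deviations from their group means were 0.18, -0.11, -0.07, -0.26 and 0.00 for replicates 1, 2, 4, 5 and 6. Only for replicate 1 was the same-numbered no-PM library the closest match. No label says that the numbers pair samples, and these correlations cannot settle whether they do. With a replicate block 561 genes were called (76 higher, 485 lower), and with the block and the offset 5 (1 and 4).

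The difference between the arms was called for 24 genes with DESeq2, 45 with voom, 4 with the block and 3 with the block and the offset, and for 8 to 27 with one library left out. The saline-arm count was 5060 with voom, 674 with the offset, 827 with the block and the offset, and 376 to 3337 with one library left out. The slopes' differences between groups kept their sign and side of the threshold in every leave-out, at -0.20 to -0.14 for length and -0.24 to -0.17 for GC content.

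Of 91 called named genes 36 kept direction and call with the offset, 54 lost the call and Ndufa1 reversed. Of 26 named genes not called, 6 passed in the same direction without the libraries under 2 M counts. The number was also 6 without no-PM replicate 4, and 9 with voom. Signs reversed as follows on the log2 scale. With the offset Ndufa1 was -0.20, Il5 -0.11, Tslp -0.21, Muc5b 0.0661 and Ccl11 -0.23. With the offset and without the libraries under 2 M counts Ndufa1 was -0.17, Ndufa7 -0.10, Il5 -0.34, Tslp -0.19, Muc5b 0.26, Muc5ac 0.28 and Ccl11 -0.20. With the block and the offset Ndufa1 was -0.23, Tslp -0.23, Muc5b 0.0882, Muc5ac 0.21 and Ccl11 -0.17. With the block Irg1 was 0.0167, with library totals Lbp -0.0501 and with voom Clca1 -0.30. Among leave-outs Il5 ran from -0.0386 (without no-PM replicate 2) to 0.48, Clca1 from -0.0753 (without no-PM replicate 2) to 0.45, with Clca1 at -0.0373 and Irg1 at 0.16 without PM replicate 2, and Irg1 at 0.11 without PM replicate 6. The cause of these changes was not tested. Depth limits low genes most in PM replicate 4, where 1 count is 3.31 CPM.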
